A study of Mus musculus with 12 samples.

Results

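The 10 genes described here mark the cell types of the mouse lung. They were chosen by name. Of the 10, 5 encode transcription factors used to define lung cells (Nkx2-1, Foxj1, Foxf1, Tbx4 and Tbx2) and 5 are expressed in alveolar type I cells (Ager, Aqp5, Hopx, Pdpn and Rtkn2). All 10 were among the 18193 genes measured, and each was read from its probe set with the highest mean signal over the 12 arrays of the series. A probe set is a group of short oligonucleotides on the array that together measure 1 transcript.

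The arrays were hybridized with RNA from thymus, heart, lung and liver of WT, p66-/- and p53-/- mice. All mice were 2 months old and of the Sv/129 strain. p66 is an isoform of the adaptor protein Shc1 that acts in oxidative stress, and p53 is a stress-activated tumour suppressor. The WT mice were the controls for both deletions. Each of the 12 combinations of tissue and genotype was represented by 1 array, with the RNA of 4 mice pooled. The signal is given on the log2 scale, so that a difference of 1 is 2-fold. A knock-out difference within 1 tissue therefore rests on single arrays and has no error, while a difference between tissues rests on 3 arrays per tissue, which differ in genotype.

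Gas exchange in the lung takes place across alveolar type I cells, which are thin and cover most of the alveolar surface, and type II cells make surfactant and can give rise to type I cells. NKX2-1 is the transcription factor that defines lung epithelium, and it is also expressed in thyroid. FOXJ1 drives the program of motile cilia in airway cells. FOXF1, TBX2 and TBX4 act in the mesenchyme around the airways, and FOXF1 also acts in lung endothelium. Of the type I genes, Ager encodes the receptor for advanced glycation end products, Aqp5 a water channel, Hopx a homeodomain protein without DNA binding of its own and Pdpn the membrane glycoprotein podoplanin. Rtkn2 is used as a marker of type I cells.

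RefSeq promoter sequences (mouse build GRCm38.p6) were available for 6 of the 10 genes. The 4 shown here belong to type I genes that were higher in lung on all 3 lung arrays, and they show how unlike each other these promoters are in base composition. Each runs 5′ to 3′ on the strand of the gene, from 250 bases before to 50 bases after a transcript start. Capitals mark a match to 1 of the 3 motifs searched on both strands, which were the NKX2-1 core CAAGTG, the forkhead core TGTTTAC and the T-box core GGTGTGA. The NKX2-1 letters also fit the E-box pattern CANNTG.
Ager promoter, chr17:34597600-34597899, plus strand: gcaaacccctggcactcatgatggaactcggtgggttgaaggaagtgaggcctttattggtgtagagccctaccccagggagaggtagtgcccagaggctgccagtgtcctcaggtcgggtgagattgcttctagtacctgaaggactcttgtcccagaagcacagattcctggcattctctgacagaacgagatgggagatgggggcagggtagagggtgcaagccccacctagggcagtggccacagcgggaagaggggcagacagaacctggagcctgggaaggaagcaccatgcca
Aqp5 promoter, chr15:99590778-99591077, plus strand: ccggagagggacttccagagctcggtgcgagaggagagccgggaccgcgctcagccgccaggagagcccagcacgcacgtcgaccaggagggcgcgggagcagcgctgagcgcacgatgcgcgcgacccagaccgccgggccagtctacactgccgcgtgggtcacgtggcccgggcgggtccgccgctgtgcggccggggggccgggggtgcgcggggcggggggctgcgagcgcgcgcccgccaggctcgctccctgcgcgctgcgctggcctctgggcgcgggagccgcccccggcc
Hopx promoter, chr5:77095218-77095517, minus strand: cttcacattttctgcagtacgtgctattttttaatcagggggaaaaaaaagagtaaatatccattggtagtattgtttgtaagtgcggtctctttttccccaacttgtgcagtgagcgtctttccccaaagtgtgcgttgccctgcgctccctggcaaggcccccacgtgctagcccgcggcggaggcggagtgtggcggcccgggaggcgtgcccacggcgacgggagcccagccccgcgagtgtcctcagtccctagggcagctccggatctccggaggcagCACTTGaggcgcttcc
Pdpn promoter, chr4:143299515-143299814, minus strand: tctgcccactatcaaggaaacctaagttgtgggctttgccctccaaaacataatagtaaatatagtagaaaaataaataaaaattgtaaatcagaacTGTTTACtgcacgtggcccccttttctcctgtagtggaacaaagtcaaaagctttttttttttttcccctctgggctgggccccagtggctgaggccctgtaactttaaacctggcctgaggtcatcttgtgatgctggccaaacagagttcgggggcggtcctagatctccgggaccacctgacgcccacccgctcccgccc

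The Aqp5 promoter was 79.7% G and C with 46 CG dinucleotides, against a median of 52.7% and 7 over all 32851 promoters. The Ager promoter held 4 CG dinucleotides, the Pdpn promoter 7 and the printed Hopx promoter 21. The Hopx promoter held CACTTG, the NKX2-1 core on the other strand, from base 285, and the Pdpn promoter held TGTTTAC from base 98. These letters are common, since the NKX2-1 core was in 13.6% of all promoters, the forkhead core in 3.65% and the T-box core in 3.98%. No match was found in the promoters of Ager, Aqp5, Nkx2-1 and Tbx4 or in the second Hopx promoter (chr5:77115074-77115373, minus strand).

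Across the series, the mean log2 signal per array was between 6.55 and 6.60. On the WT lung array the 3′ probe set of Gapdh exceeded the 5′ one by 2.29, a sign of RNA quality, against 1.32 on the p66-/- and 0.66 on the p53-/- lung array. The 18S ribosomal RNA signal was 5.52, 5.94 and 9.79 on these arrays in the same order. Of the tissue markers, 16 hepatocyte genes averaged 10.19, 9.21 and 6.79 on the WT, p66-/- and p53-/- lung arrays, so the lung arrays also differed in liver transcripts. In the same order, 12 thymocyte genes averaged 6.42, 7.54 and 6.93, 9 B and plasma cell genes 6.73, 7.75 and 7.01, and 10 skeletal muscle genes 8.87, 8.69 and 7.58. The values were 8.74, 8.24 and 8.27 for 12 cardiomyocyte genes, 9.03, 8.58 and 8.47 for 8 smooth muscle genes, 9.02, 8.57 and 8.32 for 11 myeloid genes, and 8.99, 9.58 and 9.61 for 6 adipocyte genes. Over all probe sets, the p66-/- lung array correlated with the WT lung array at r = 0.989 and the p53-/- array at r = 0.964. Of the targeted genes, Shc1 ranged from 8.57 to 9.09 on WT arrays and from 9.14 to 9.83 on p66-/- arrays. It has isoforms other than p66, so this is no check of the deletion. The signal of the p53 gene was not used here.

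The first comparison asked how far each gene marked the lung. In the limma fit with tissue and genotype as terms, 8 of the 10 genes were higher in lung than the mean of heart, liver and thymus, among them all 5 type I genes. The other two, Nkx2-1 and Foxf1, did not pass the threshold of an adjusted p of 0.05. Over all genes, 17.1% were higher and 13.1% lower in lung. The same 8 genes were higher in lung than in each single tissue, which 7.13% of all genes were, although Tbx4 against heart depended on single arrays. Against heart, 20.4% of all genes were higher in lung, against liver 18.1% and against thymus 15.3%. For 7 of the 10 genes, every lung array lay above every other array, which held for 8.51% of all genes, and the exceptions were Nkx2-1, Foxf1 and Tbx4. The share of higher genes among all calls was 56.6%, and it was 45.8% with quantile normalization repeated and 38.0% with each array centred on its median, while the median difference of all genes went from -0.12 to -0.14 and -0.23. In whole tissue, fewer cells of a type and less RNA per cell cannot be told apart.

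**Figure D1:**
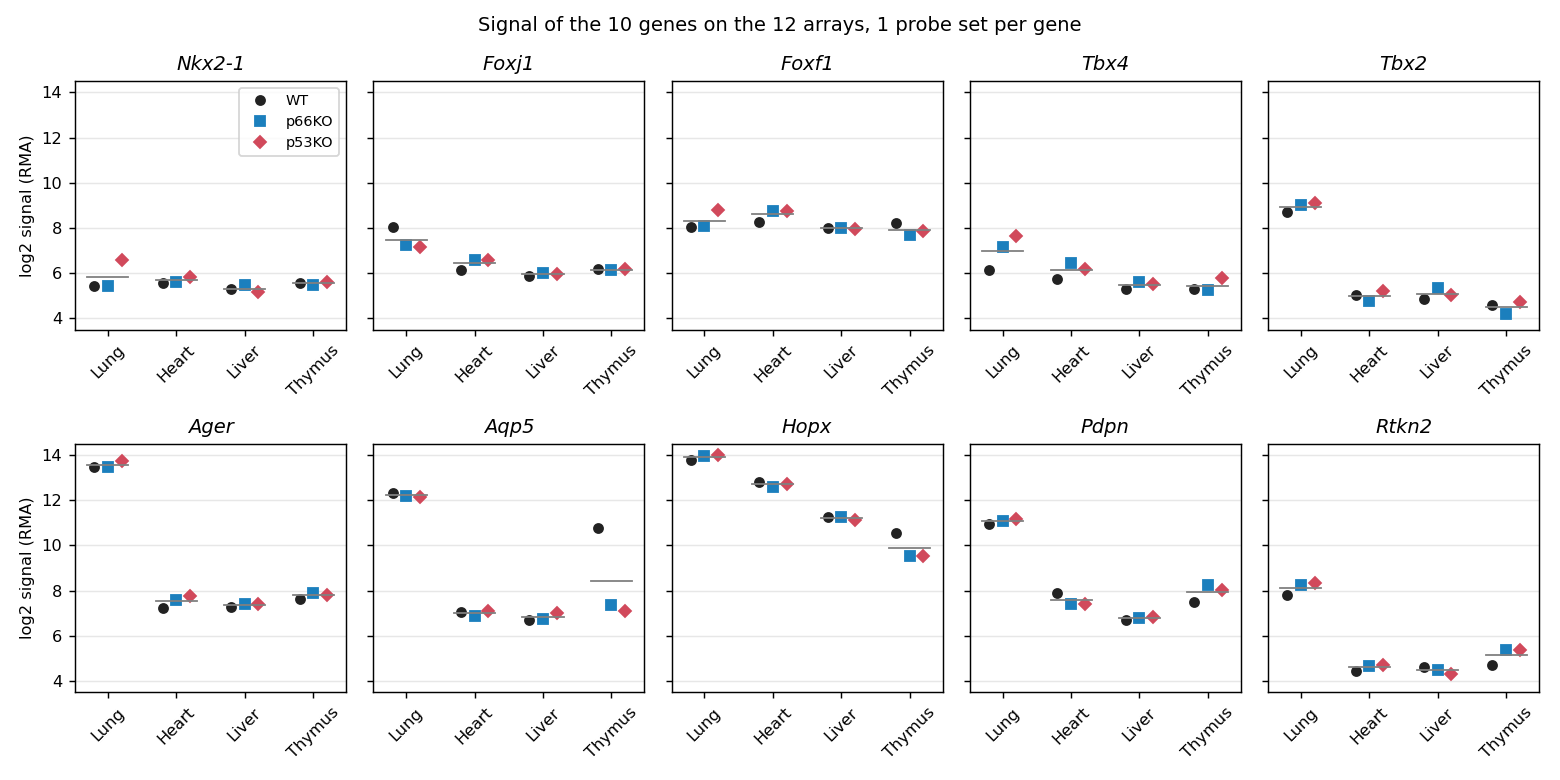
Log2 signal (RMA) of the 10 genes in lung, heart, liver and thymus, 1 panel per gene. Each point is 1 array, its shape and colour give the genotype (WT, p66KO for p66-/-, p53KO for p53-/-), and the grey line is the mean of the 3 arrays of a tissue. Ager lay at 13.45 to 13.75 in lung and at 7.91 or below elsewhere, Nkx2-1 was near 5.5 on all arrays but that of p53-/- lung, and Aqp5 was high on the WT thymus array.

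Ager had the largest lung difference of the 10 genes. Its signal in lung was 13.45 in WT, 13.47 in p66-/- and 13.75 in p53-/- mice. It was 7.22, 7.58 and 7.77 in heart, 7.28, 7.39 and 7.42 in liver, and 7.63, 7.91 and 7.81 in thymus, for the genotypes in the same order. The 3 lung arrays lay close together and at least 5.54 above every other array. Lung exceeded the other tissues by 6.0 (SE 0.12), which is 63.9-fold (limma, adjusted p = 8.44e-10). Of the other tissues, thymus (mean 7.79) and heart (7.52) did not differ past the threshold (adjusted p = 0.181), nor did heart and liver (7.36, adjusted p = 0.448), while liver minus thymus was -0.42 (adjusted p = 0.0468 in limma). The last of these was past the threshold in only 2 of the 12 fits that each left out 1 array (adjusted p up to 0.175), so thymus, heart and liver are not ordered for Ager.

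Pdpn was likewise separated on all arrays. In lung it was at 10.95 in WT, 11.09 in p66-/- and 11.16 in p53-/- mice. It was 7.91, 7.42 and 7.40 in heart, 6.71, 6.78 and 6.84 in liver, and 7.48, 8.25 and 8.04 in thymus. Lung exceeded the others by 3.64 (SE 0.18), or 12.5-fold (limma, adjusted p = 2.46e-07). Liver was the lowest tissue. Heart exceeded it by 0.80 (adjusted p = 0.0176), liver minus thymus was -1.14 (adjusted p = 0.00204 in limma), and heart and thymus did not differ past the threshold (adjusted p = 0.238). Heart against liver was past it in 8 of the 12 fits with 1 array left out. Heart minus thymus was -0.60 (adjusted p = 0.0147) without the WT thymus and -0.62 (adjusted p = 0.0331) without the WT heart array.

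Rtkn2 showed the same order of tissue means. The lung signal was 7.82 in WT, 8.23 in p66-/- and 8.35 in p53-/- mice. It was 4.44, 4.67 and 4.73 in heart, 4.62, 4.51 and 4.31 in liver, and 4.72, 5.38 and 5.39 in thymus. The lung arrays stood apart from the rest, by 3.38 (SE 0.15) or 10.4-fold in the mean (limma, adjusted p = 1.51e-07). Heart minus thymus was -0.55 (adjusted p = 0.0448) and liver minus thymus -0.68 (adjusted p = 0.017 in limma), and heart and liver did not differ past the threshold (adjusted p = 0.619). With 1 array left out, the difference between heart and thymus was past the threshold in 3 of 12 fits (adjusted p up to 0.173) and that between liver and thymus in 8, so the order of these tissues is not settled.

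Hopx was graded over the tissues rather than confined to lung. The lung arrays read 13.78 in WT, 13.94 in p66-/- and 13.98 in p53-/- mice. In heart it was 12.82, 12.57 and 12.72, in liver 11.26, 11.26 and 11.12, and in thymus 10.54, 9.53 and 9.53. No array of one tissue overlapped with another tissue, and each step passed the test. Lung exceeded heart by 1.20 (SE 0.23, adjusted p = 0.00248 in limma), heart exceeded liver by 1.49 (adjusted p = 0.000479) and liver exceeded thymus by 1.34 (adjusted p = 0.000973). Against all others together, lung was higher by 2.64 (SE 0.18), or 6.24-fold (limma, adjusted p = 2.81e-06). HOPX is also known from the developing heart, where it restrains cardiac transcription.

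Aqp5 was high in lung and, outside it, on a single array. The lung signal was 12.32 in WT, 12.19 in p66-/- and 12.16 in p53-/- mice. It was 7.07, 6.89 and 7.12 in heart and 6.68, 6.75 and 7.03 in liver. In thymus it was 10.79 in WT against 7.36 in p66-/- and 7.12 in p53-/- mice. The WT thymus array thus lay far above the other thymus arrays, yet 1.37 below the lowest lung array. Lung exceeded the other tissues by 4.80 (SE 0.54), or 27.9-fold (limma, adjusted p = 7.21e-05), and thymus by 3.80, or 13.9-fold (adjusted p = 0.0017). Without the WT thymus array these differences were 5.19 (SE 0.12), or 36.6-fold, and 4.98, or 31.6-fold (adjusted p = 1.49e-11 and 6.6e-10 in limma). Heart, liver and thymus did not differ past the threshold for Aqp5 (adjusted p between 0.093 and 0.834), except that heart and liver minus thymus were -2.09 and -2.30 without the p53-/- thymus array (adjusted p = 0.0461 and 0.0275 in limma).

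Aqp5 is also the water channel of salivary acinar cells. On the WT thymus array, 16 salivary gland genes averaged 13.18, against 5.82 on the p66-/- and 5.79 on the p53-/- thymus array. Among them, Pip, a secreted salivary protein, was at 14.54, 4.90 and 5.28, and Car6, the secreted carbonic anhydrase of saliva, at 14.48, 5.45 and 5.91. Smr2 (7.95, 7.64 and 8.13) and Kcnn4 (10.63, 11.2 and 10.8) of the same list did not stand out on the WT thymus array. The WT heart array had the next highest mean of the 16 genes, 8.01, with Aqp5 at 7.07, and the 3 lung arrays were at 5.38 to 5.61. The high Aqp5 signal in WT thymus therefore came with salivary transcripts and that in lung did not. Airway transcripts also differed between the thymus arrays, where 9 club cell genes averaged 9.75 in WT, 9.25 in p66-/- and 6.94 in p53-/- mice. The part of the salivary and club cell transcripts in the Aqp5 signal of WT thymus was not tested.

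**Figure D2:**
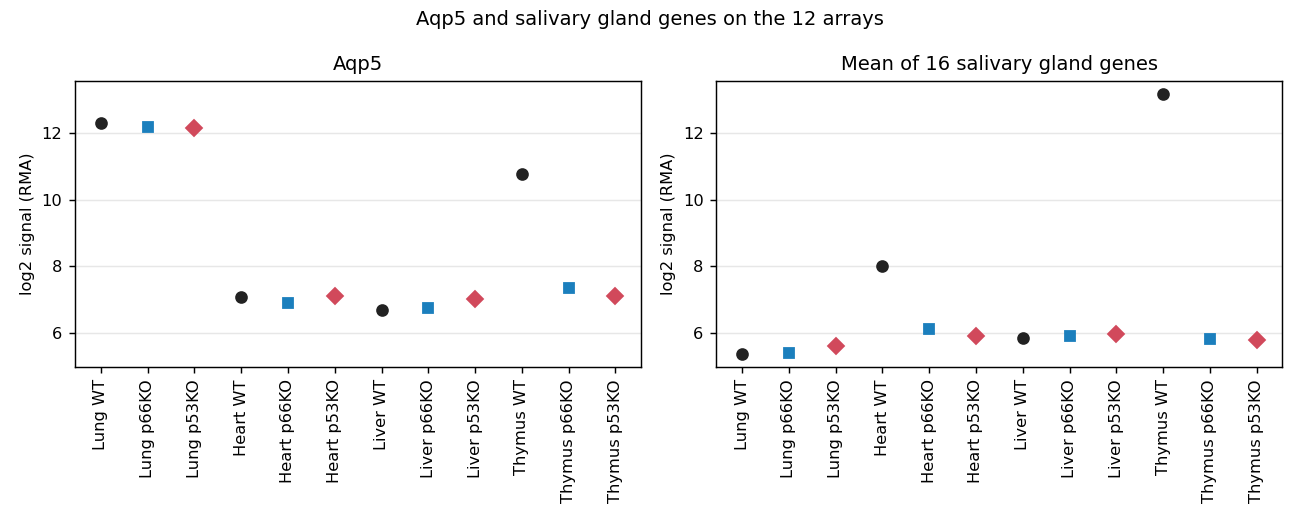
Log2 signal (RMA) of Aqp5 (left) and mean log2 signal of 16 salivary gland genes (right) on each of the 12 arrays, with 1 point per array and the tissue and genotype on the x axis. Aqp5 was above 12 on the 3 lung arrays, where the salivary genes averaged 5.38 to 5.61, and at 10.79 on the WT thymus array, where they averaged 13.18.

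Among the transcription factors, Tbx2 had the largest lung difference by the probe sets used. In lung it was at 8.72 in WT, 9.01 in p66-/- and 9.10 in p53-/- mice. It was 5.03, 4.76 and 5.21 in heart, 4.84, 5.35 and 5.05 in liver, and 4.58, 4.19 and 4.73 in thymus. Lung was separated from all other arrays and exceeded the other tissues by 4.08 (SE 0.16), or 17.0-fold (limma, adjusted p = 5.76e-08). Liver exceeded thymus by 0.58 (adjusted p = 0.0416 in limma), while heart did not differ past the threshold from liver (adjusted p = 0.777) or thymus (adjusted p = 0.0712). The difference between liver and thymus was past the threshold in 3 of the 12 fits with 1 array left out (adjusted p up to 0.23), and heart exceeded thymus by 0.61 (adjusted p = 0.0191) without the WT thymus array.

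Foxj1, the ciliated cell factor, was higher in lung by a smaller amount. Its signal in lung was 8.04 in WT, 7.24 in p66-/- and 7.16 in p53-/- mice. It was 6.16, 6.60 and 6.57 in heart, 5.88, 6.02 and 5.97 in liver, and 6.18, 6.13 and 6.19 in thymus. Every lung array was above the rest, and the WT lung array was the highest. Lung exceeded the other tissues by 1.29 (SE 0.19), or 2.45-fold (limma, adjusted p = 0.000435), and no pair among heart, liver and thymus differed past the threshold (adjusted p between 0.146 and 0.583). Without the WT lung array, heart exceeded liver by 0.48 (adjusted p = 0.0405), and without the WT thymus and WT heart arrays by 0.75 (adjusted p = 0.0144 in limma).

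Nkx2-1 was not separated from the other tissues by its only probe set. Its signal in lung was 5.43 in WT, 5.42 in p66-/- and 6.59 in p53-/- mice. It was 5.57, 5.62 and 5.85 in heart, 5.29, 5.49 and 5.17 in liver, and 5.57, 5.49 and 5.60 in thymus. The WT and p66-/- lung arrays lay within the range of the other tissues, and the p53-/- lung array alone lay above it. The lung difference was 0.29 (SE 0.21, adjusted p = 0.293 in limma), and it was -0.08 (SE 0.15, adjusted p = 0.684) without the p53-/- lung array. Surfactant genes known as targets of NKX2-1 were far above the other tissues in the same lungs, with Sftpc higher by 7.79 and Sftpa1 by 8.37, both with an adjusted p under the threshold, so this probe set did not follow those genes. It was not shown to rise above background on the WT and p66-/- lung arrays, and whether it detects the Nkx2-1 transcript was not settled.

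Tbx4 and Foxf1 each had a pair of probe sets that gave different lung differences. By the probe set with the higher mean, Tbx4 in lung was 6.12 in WT, 7.17 in p66-/- and 7.66 in p53-/- mice. It was 5.76, 6.45 and 6.18 in heart, 5.29, 5.62 and 5.54 in liver, and 5.29, 5.26 and 5.77 in thymus. The WT lung array lay below the p66-/- and p53-/- heart arrays, so the groups overlapped. Lung exceeded the other tissues by 1.30 (SE 0.20), or 2.47-fold (limma, adjusted p = 0.000669), and heart alone by 0.85 (adjusted p = 0.0232). The difference from heart no longer passed the threshold without the p53-/- lung array (0.59, adjusted p = 0.0899), without the p66-/- one (0.81, adjusted p = 0.0957) or without the p53-/- heart array (0.70, adjusted p = 0.109 in limma). Heart against liver and heart against thymus did not pass (adjusted p = 0.0732 and 0.0538) but did so in 3 of the 12 fits with 1 array left out.

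By the second Tbx4 probe set, the gene was clearly separated. Its signal in lung was 8.22 in WT, 8.54 in p66-/- and 8.08 in p53-/- mice, against 4.29 to 5.07 on the other 9 arrays. The lung difference was 3.71 (SE 0.14), or 13.1-fold (limma over every probe set, adjusted p = 1.1e-07). Over the 12 arrays the Tbx4 probe sets correlated at r = 0.79. Tbx4 lies near Tbx2 on chromosome 11 in RefSeq, at 85886367 to 85916097 against 85832615 to 85841948.

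Foxf1 showed the widest gap between probe sets. By the one with the higher mean, its signal in lung was 8.05 in WT, 8.09 in p66-/- and 8.78 in p53-/- mice. It was 8.28, 8.74 and 8.77 in heart, 7.99, 7.98 and 7.96 in liver, and 8.20, 7.68 and 7.85 in thymus. The lung arrays lay among the others, and the difference was 0.14 (SE 0.18, adjusted p = 0.546 in limma), with heart above thymus by 0.68 (adjusted p = 0.035) as the only pair past the threshold, which held in 6 of the 12 fits with 1 array left out. Heart exceeded liver past the threshold in 3 of these fits, and without the WT thymus array lung exceeded thymus by 0.63 (adjusted p = 0.0186). By the second probe set, Foxf1 was at 9.0, 9.19 and 9.76 in lung and between 5.79 and 6.48 on the other 9 arrays. This is a lung difference of 3.10 (SE 0.17), or 8.57-fold (limma over every probe set, adjusted p = 1.09e-06). The Foxf1 probe sets correlated at r = 0.21, and which of them follows the transcript was not tested.

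For Ager and Hopx, both probe sets gave a lung difference past the threshold. The second Ager probe set was at 14.53, 14.32 and 14.38 in lung and between 5.92 and 7.56 elsewhere, a difference of 7.58 (SE 0.18), or 191-fold. The second Hopx probe set gave 3.37 (SE 0.23), or 10.3-fold, with the same order of tissue means. The correlation between probe sets was 0.995 for Ager and 0.994 for Hopx.

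**Figure D3:**
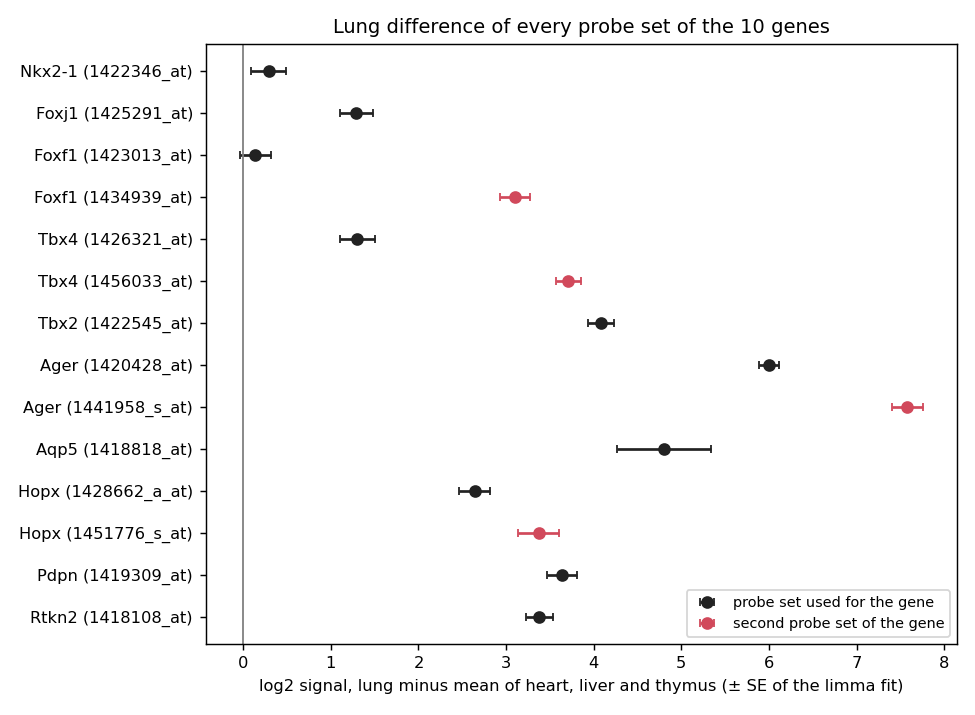
Difference in log2 signal between lung and the mean of heart, liver and thymus for the 14 probe sets of the 10 genes (limma estimate, bars are ± SE, 12 arrays). Black points are the probe sets used for the genes and red points the second ones. The second probe sets of Foxf1 and Tbx4 gave 3.10 and 3.71 where the first gave 0.14 and 1.30.

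Between the other tissues, Hopx was the gene that differed in every pair. Heart and liver differed for 2 of them (Hopx and Pdpn), against 30.5% of all genes. Heart and thymus differed for 3 (Hopx, Foxf1 and Rtkn2), against 34.3%, and liver and thymus for 5 (Hopx, Pdpn, Rtkn2, Tbx2 and Ager), against 32.8%. With 1 array left out, these counts ranged from 1 to 4 for heart and liver, from 1 to 6 for heart and thymus, and from 2 to 5 for liver and thymus, and they were 4, 6 and 5 without the WT thymus array. Without any single lung array, liver and thymus differed for 3. Hopx differed in all these pairs whichever array was left out.

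The genes whose signal was most like that of each member were sought over the 12 arrays, among genes at or above the median signal. The 12 points share 4 tissues, so a correlation mainly records a tissue pattern. Ager was most like Slc34a2 and Sftpb (both r = 0.999) and Cldn18 (r = 0.997), of which the first 2 are type II genes. Pdpn was most like Tspan2 (r = 0.998), Spock2 (r = 0.992) and Lpcat1 (r = 0.991). Tbx2 was most like Cldn18 (r = 0.989), and Rtkn2 most like Sftpd (r = 0.990). Hopx, which was also high in heart, was most like Adgrl4 (r = 0.989) and Gpihbp1 (r = 0.988), both endothelial genes. Aqp5 was most like Scnn1g (r = 0.976), a subunit of the epithelial sodium channel. Of the factors, Foxj1 was most like Rbms3 (r = 0.973). By their first probe sets only, Tbx4 was most like Col4a3 (r = 0.954) and Foxf1 most like Tubb4a (r = 0.955). Nkx2-1 was most like Cstdc2 (r = 0.859), by a probe set for which detection of the transcript was not settled. Among the 10 genes themselves, Ager and Rtkn2 correlated at 0.987 and Pdpn and Rtkn2 at 0.980.

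Further marker genes of the same cell types were read from the same fit. All 15 other type I genes measured were higher in lung than in the mean of the other tissues, with a median difference of 3.89 against -0.12 over all genes. Igfbp2, a binding protein of insulin-like growth factors, was nevertheless lower in lung (10.61 to 11.47) than in liver (11.84 to 12.04), and the other 14 had a higher mean in lung than in each tissue. The largest were Cldn18, a tight junction protein, higher by 7.10 (SE 0.12, adjusted p = 2.19e-10 in limma), and Akap5, an anchoring protein for kinase A, higher by 6.56. Ndnf was higher by 5.13 and Emp2 by 4.57. All 13 type II genes were higher too, with a median of 4.86, led by the surfactant protein genes Sftpa1 and Sftpc. Of 9 club cell genes, 8 were higher, with a median of 4.12. Of these, Aldh1a7 was nevertheless lower in lung (11.36 to 11.61) than in liver (11.98 to 12.38). Cldn10 was at 7.78 to 8.78 in lung and at 9.69 on the WT thymus array.

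The ciliated cell list was split. Of 29 genes, 15 were higher in lung, against 17.1% of all genes, and 14 did not pass the test, with a median of 0.59. Some of the 14 had a low signal on every array, lung included. Whether their probe sets detect the transcripts was not settled. Dynlrb2, a dynein light chain, was higher by 4.57 (SE 0.13, adjusted p = 9.05e-09 in limma) and Tppp3, a tubulin-binding protein, by 4.04. Rsph4a, a radial spoke protein, was higher by 2.31. Foxj1, at 1.29, lay within the range of this list.

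Around the mesenchymal factors, 17 of 22 lung mesenchyme genes were higher in lung than the mean of the other tissues and none was lower, with a median of 1.59. Itga8, an integrin of lung fibroblasts, was higher by 5.31 (SE 0.23, adjusted p = 1.24e-07 in limma), Inmt by 4.97, Limch1 by 4.81 and Tcf21, a mesenchymal transcription factor, by 4.71. All 20 endothelial genes were higher, with a median of 2.83, and Tmem100 led them at 5.39. All 8 mesothelial genes were higher, with a median of 2.38.

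Of 24 other lung transcription factors, 19 were higher in lung than the mean of the other tissues and 5 did not pass the test, with a median of 1.42. Some of the 19 were nevertheless lower in lung than in another tissue. Cebpa was at 11.17 to 11.27 in lung and 12.26 to 12.44 in liver, and Id2 at 9.32 to 10.33 and 11.14 to 11.6. Gata6 was at 8.88 to 9.27 in lung and 9.35 to 9.78 in heart. Sox2, an airway factor, was higher by 3.91 (SE 0.21, adjusted p = 4.7e-07 in limma), Irx3 by 3.89 and Cebpd by 2.87. Within the gene families of the members the pattern was mixed, and over all genes 17.1% were higher in lung. Of 23 other forkhead genes, 6 were higher, among them Foxa2 (2.38) and Foxa1 (2.17), both epithelial factors, and Foxa3, a hepatocyte factor, was lower at -1.59. Of 13 other T-box genes, 4 were higher, led by Tbx3 (1.73), the close relative of Tbx2, and Tbx20, a heart factor, was lower at -1.33. The family medians were 0.09 and -0.16.

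**Figure D4:**
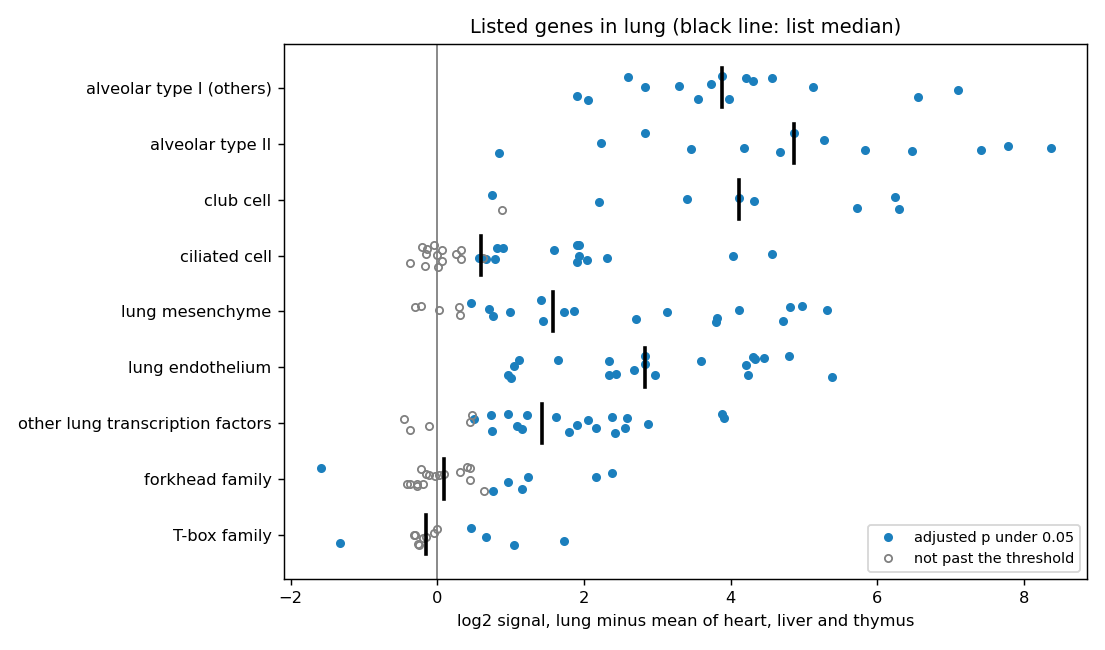
Difference in log2 signal between lung and the mean of heart, liver and thymus for the genes of 9 lists, without the 10 members. Each point is 1 gene, filled where the limma adjusted p is under 0.05, the black line is the list median, and vertical scatter within a row only separates points. The medians of the type I and type II lists are 3.89 and 4.86, and those of the forkhead and T-box families 0.09 and -0.16.

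The second comparison asked how the 10 genes differed between knock-out and WT lungs. The type I genes differed little, and the differences past a log2 of 1 were those of Nkx2-1 and Tbx4. In p53-/- lung, 2 of the 10 genes differed by 2-fold or more, against 4.76% of all genes, and in p66-/- lung 1 did, against 0.654%. These calls depended on the scaling. With quantile normalization repeated, Nkx2-1 in p53-/- lung was at 0.97 and Tbx4 in p66-/- lung at 0.91, both under 2-fold. With a loess scaling of the 3 lung arrays, Nkx2-1 was at 0.94. By the mean of its probe sets, Tbx4 was at 0.7 in p53-/- and 0.69 in p66-/- lung. The signal was above WT for 8 of the 10 in p53-/- and for 7 in p66-/- lung. The share of all genes above WT was not counted, so these counts alone do not set the 10 genes apart. The median difference of the 10 was 0.34 and 0.09, against 0.07 and 0.01 over all genes. Both differences share the WT lung array, and there is no replicate check on any of them.

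The 5 type I genes stayed within 0.53 of WT. In p53-/- lung, Ager differed by 0.30, Aqp5 by -0.16, Hopx by 0.20, Pdpn by 0.21 and Rtkn2 by 0.53. In p66-/- lung the differences were 0.02, -0.13, 0.16, 0.15 and 0.42 for the same genes. The second Ager probe set went the other way, with -0.15 and -0.21, and the second Hopx probe set gave 0.29 and 0.38. Tbx2 was 0.38 and 0.29 above WT. Among the 15 other type I genes, only Col4a3, a basement membrane collagen, differed by 2-fold or more, at 8.17 in WT, 9.31 in p66-/- and 10.37 in p53-/- lung. The list medians were 0.06 in p53-/- and 0.18 in p66-/- lung.

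Nkx2-1 was 1.16 above WT in p53-/- lung and -0.01 from it in p66-/- lung. Since the WT lung signal of 5.43 lay within the 5.17 to 5.85 of the other tissues, this difference is one of signal and no fold of the transcript can be given. In the other tissues its p53-/- differences were 0.27 in heart, -0.12 in liver and 0.03 in thymus. The surfactant and other type II genes, which include NKX2-1 targets, had a median difference of -0.13 in p53-/- lung, and none of the 13 differed by 2-fold. The 7 measured thyroid and parathyroid genes averaged 6.28 in WT, 6.35 in p66-/- and 6.51 in p53-/- lung, and 6 of the 7 were above WT in p53-/- lung, with a median of 0.32. From WT to p53-/- lung, Tg went from 5.45 to 5.78, Pth from 4.57 to 4.98 and Pax8, a thyroid transcription factor, from 5.04 to 5.85. Slc5a5 went from 7.15 to 7.49, and Slc26a4 went the other way, from 7.2 to 6.7. On the other 9 arrays this list averaged 6.35 to 6.85. The 18S, Gapdh and hepatocyte values given above also set the p53-/- lung array apart. The part of these and of the thyroid list in the Nkx2-1 difference was not tested.

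Tbx4 was 1.53 (2.90-fold) above WT in p53-/- and 1.05 (2.07-fold) in p66-/- lung by its first probe set. By its second probe set the differences were -0.14 and 0.32, so the gene differed from WT by 2-fold or more by 1 probe set only. The WT lung array, on which the first Tbx4 probe set was lowest, was also the one with the largest Gapdh 3′ excess, and its part was not tested. The first Tbx4 probe set was above WT in p53-/- heart (0.42), liver (0.25) and thymus (0.48) as well.

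Foxf1 was 0.73 above WT in p53-/- lung by the first and 0.77 by the second probe set. In p66-/- lung the differences were 0.04 and 0.20. The probe sets that disagreed on the tissue difference thus gave similar p53-/- differences, both under 2-fold. In the lung mesenchyme list only Npnt, an integrin ligand of the basement membrane, differed by 2-fold or more in p53-/- lung, at 10.83 in WT, 10.35 in p66-/- and 9.23 in p53-/- mice. The list medians were -0.08 in p53-/- and 0.10 in p66-/- lung.

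Foxj1 was the only transcription factor of the 5 below WT in both knock-out lungs, with differences of -0.87 (1.83-fold) in p53-/- and -0.80 (1.74-fold) in p66-/- lung. In heart its differences were 0.41 and 0.44, and in liver and thymus they were at most 0.14. The ciliated cell genes had medians of -0.15 and -0.05, with 18 of 29 below WT in each knock-out. In p53-/- lung 2 of them were lower by 2-fold or more, Ccdc39, at 7.17, 6.90 and 4.51 in WT, p66-/- and p53-/- mice, and Rsph4a, at 6.79, 6.82 and 5.31. Neither was lower by 2-fold in p66-/- lung, where no gene of the list was. Markers of some other cell types were below WT on the same arrays: all 8 smooth muscle genes in both knock-outs (medians -0.50 in p53-/- and -0.36 in p66-/-), 9 and 12 of 12 cardiomyocyte genes, and 8 and 9 of 11 myeloid genes. Thymocyte genes went the other way, with 12 and 11 of 12 above WT. So did 7 and 8 of 9 B and plasma cell genes, and 5 of 6 adipocyte genes in each knock-out. The part of all these differences, and of the larger Gapdh 3′ excess on the WT lung array, in the Foxj1 difference was not tested.

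Of the 24 other lung transcription factors, 4 were lower by 2-fold or more in p53-/- lung. Irx3 differed by -1.39, Sox2 by -1.19, Foxa2 by -1.05 and Id2 by -1.01, and the median of the list was -0.49. In p66-/- lung none differed by 2-fold and the median was -0.03. Thus the p53-/- lung array had a higher Nkx2-1 and a lower Sox2 and Foxa2 signal than the WT array. Detection of the transcript was not settled for the Nkx2-1 probe set. Over all genes, 754 were lower and 112 higher by 2-fold or more on the p53-/- lung array. In the forkhead family, Foxn2 (-1.27) and Foxa2 were lower and Foxo3 (1.01) higher by 2-fold in p53-/- lung. Of the T-box family, Tbx1 and Tbx20 were lower (both -1.11), and Tbx20 was also lower in p66-/- lung (-1.08), beside cardiomyocyte medians of -0.80 in p53-/- and -0.52 in p66-/- lung. The family medians were -0.09 and 0.08 in p53-/- lung. Among the endothelial genes, Emcn, a sialoglycoprotein of capillaries and veins, was at 7.82 in WT, 9.10 in p66-/- and 9.16 in p53-/- lung, and the list medians were -0.39 in p53-/- and 0.12 in p66-/- lung.

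**Figure D5:**
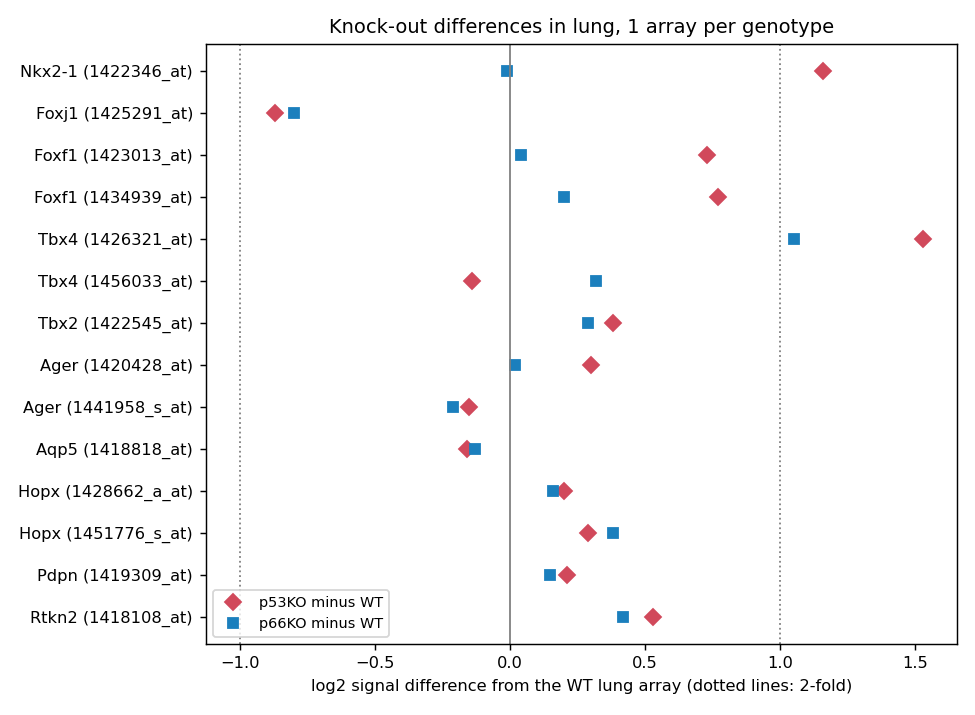
Difference in log2 signal of the p53-/- (red, p53KO) and the p66-/- (blue, p66KO) lung array from the WT lung array for the 14 probe sets of the 10 genes, with 1 array per genotype and no error. Dotted lines mark 2-fold. Foxj1 lies at -0.87 and -0.80, Nkx2-1 at 1.16 in p53-/- lung, and the Tbx4 probe sets at 1.53 and -0.14.

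Outside lung, by the probe sets used, the knock-out differences of 2-fold or more among the 10 genes were in thymus. Aqp5 was -3.67 from WT in p53-/- and -3.42 in p66-/- thymus, beside the salivary transcripts of the WT thymus array. Hopx was -1.0 and -1.01 from WT, against the same WT thymus array. The second Hopx probe set was at 7.78 in WT, 6.93 in p66-/- and 6.45 in p53-/- thymus, so it was under 2-fold in p66-/-. The second Ager probe set was at 6.44, 7.56 and 7.37 in the same order, so it was past 2-fold in p66-/- thymus. In heart and liver, the differences of the 10 genes by the probe sets used were at most 0.69 in size.

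With the 4 tissues as repeats of a genotype, none of the 10 genes differed between p53-/- and WT (limma, adjusted p between 0.366 and 0.903) or between p66-/- and WT (all adjusted p = 1.0). At an unadjusted p under 0.05 there were 2 in p53-/-, Tbx4 and Ager, and 1 in p66-/-, Tbx4. Over all genes, 0.0055% differed in p53-/-, which is 1 gene, with 1873 at an unadjusted p under 0.05, and 0% in p66-/-, with 717. Without the WT thymus array these counts were 844 and 6, and none of the 10 genes was among them. This fit detects only differences that the tissues share, and the tissues of a genotype may come from the same mice, which the sources do not settle.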

How the data were processed

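RNA of 4 mice per tissue and genotype was pooled, labelled with biotin and hybridized to Affymetrix GeneChip mouse genome arrays, 1 per pool, and the number of arrays limits the precision. The deposited values are log2 signals that the authors normalized by RMA in Partek 6.5 (from the submitters' processing notes). RMA includes quantile normalization of the probe signals, so differences are relative to the other genes, although the medians of the deposited arrays still ranged from 6.23 to 6.42. Of 45101 probe sets, 64 controls were left out, 34945 had 1 gene in the platform annotation, 932 several and 9160 none. For each of 18193 genes the probe set with the highest mean over the 12 arrays was kept. Tissues and genotypes were compared with limma 3.58.1 (R 4.3.3; tissue and genotype as additive terms, 6 residual degrees of freedom, Benjamini-Hochberg over all genes, threshold 0.05), and the code was tested on simulated data. p-values measure the spread between arrays that differ in genotype, each a pool. Knock-out differences within a tissue are single arrays, with 2-fold as threshold and no test. The 10 genes and all 23 lists were chosen with earlier results of these data known. The genes named were the 10 members, up to 4 genes per list with the largest lung difference past the threshold, up to 4 with the largest knock-out difference in lung, and the 3 genes most like each member. Pip, Car6, Cebpa, Gata6, Aldh1a7, Gapdh and Shc1 fall outside this rule and were named after their values were seen. Fitting every probe set by itself, and leaving out the WT thymus and WT heart arrays together, were added after seeing the data. Promoters came from RefSeq (GRCm38.p6), whereas the build behind the arrays is not given in the sources used here.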

Additional observations from a re-analysis of the deposited data

Results flagged for a closer look

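Signals appeared in probe sets outside the comparisons between genes, which used 1 probe set per gene. The second probe set of Foxf1 was 3.10 higher in lung than in the other tissues, that of Tbx4 3.71, that of Ager 7.58 and that of Hopx 3.37 (log2 signal, limma over every probe set). All 4 were above the difference given by the first probe set, which was 0.14 for Foxf1, 1.30 for Tbx4, 6.0 for Ager and 2.64 for Hopx.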

How the results depend on the processing

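With each array left out, the other scalings, models and probe set rules, the 8 called genes stayed past the threshold and higher in lung, with ranges of 5.89 to 7.58 for Ager, 4.57 to 5.21 for Aqp5, 3.98 to 4.18 for Tbx2, 3.53 to 3.73 for Pdpn, 3.27 to 3.46 for Rtkn2, 2.53 to 3.37 for Hopx, 1.04 to 3.71 for Tbx4 and 0.96 to 1.48 for Foxj1. Ager, Aqp5, Hopx and Pdpn also stayed so among genes at or above the median signal. Foxj1, Tbx4, Tbx2 and Rtkn2 lay below that median by the probe sets used and were not tested under this filter. With 1 array left out, Nkx2-1 ranged from -0.08 to 0.50 and Foxf1 from -0.08 to 0.27. Without the p53-/- lung array the lung differences of Nkx2-1 and Foxf1 were both -0.08, and with quantile normalization repeated that of Foxf1 was -0.04; the mean of its probe sets gave 1.62 (adjusted p = 4.13e-05). Without the WT thymus array Foxf1 exceeded thymus by 0.63 (adjusted p = 0.0186). By the second probe set Tbx4 was -0.14 from WT in p53-/- lung. Genes lower in lung, 2391 in the fit reported, numbered 4436 with arrays centred, 1384 among genes at or above the median signal and 3751 without the WT thymus and WT heart arrays. Genes higher than in each tissue, 1297, numbered 786 among genes at or above the median signal. With 1 array left out, the ranges were 1270 (without p66-/- lung) to 3906 (without WT thymus) for genes lower, with 1356 without WT lung, 2117 to 3826 for genes higher and 922 to 1542 for genes higher than in each tissue. Across tissues, the p53-/- calls ranged from 0 to 844 (without WT thymus) and those of p66-/- from 0 to 6. Without both WT thymus and WT heart they were 21 and 5, and the mean of the probe sets gave 5 for p53-/-. In lung, 112 genes were higher and 754 lower in p53-/- and 62 and 57 in p66-/- at 2-fold. At 1.5-fold these were 1247, 2141, 340 and 378, and at 3-fold 8, 186, 24 and 10. The mean of the probe sets gave 66 higher and 401 lower in p53-/-, and genes at or above the median signal gave 495 lower in p53-/- and 38 and 37 in p66-/-. The cause of these shifts was not tested, beyond the smaller number of genes tested with the filter. The genotype term matched the tissues by genotype. No pairing by animal was possible because the labels give no replicate numbers beyond 1 array per group. A single array per knock-out and tissue limits all knock-out values.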
